A study of Mus musculus with 2 samples.

Results

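The 10 genes described here are immediate-early genes of neurons. Fos, Fosb, Junb and Jun encode subunits of the AP-1 transcription factor, Egr1 and Egr3 zinc-finger transcription factors, Npas4 a neuron-restricted basic helix-loop-helix factor, Nr4a1 and Nr4a3 orphan nuclear receptors, and Arc a postsynaptic protein that drives the removal of AMPA receptors. They were chosen by symbol from the 33696 genes counted, and all 10 were present. They were measured by single-nucleus RNA sequencing in the hippocampus of mice at postnatal day 19. The control library came from mice with the genotype Cicflox/flox, that is, loxP sites flanked part of both copies of Cic, the gene of the transcriptional repressor Capicua. The other library, labelled knockout, came from mice with the genotype Emx1-Cre; Cicflox/flox, in which Cre is driven by the Emx1 promoter in the dorsal telencephalic lineage that gives rise to the excitatory neurons and much of the glia of the hippocampus, while inhibitory neurons and microglia arise outside it. The floxed allele was therefore shared by both groups. Each library pooled 3 mice, 2 males and 1 female, and no stimulus or task is named in the labels.

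There was 1 library per group, so no difference below has a replicate check or a p-value. Ranges in parentheses are 95% intervals, exact Poisson for a level, exact binomial for a share and exact conditional binomial for a ratio, and all of them cover counting error only. Levels are in CPM, the unique molecular identifiers (UMIs, counted molecules) of a gene per 1000000 UMIs of the class, and ratios are log2 of the labelled knockout over the control with 0.5 UMI added to each sum. The analysis used 21837 control nuclei at a median of 9783 UMIs and 20529 nuclei of the library labelled knockout at a median of 8765, and 175 cell barcodes occurred in both libraries. Nuclei were grouped by marker genes into classes, each called "-like" since the name rests on markers alone, and 16 classes had at least 100 nuclei in each library. The floxed gene Cic (ENSMUSG00000005442) was no lower in the labelled knockout than in the control. It had 9.1 and 12.2 CPM in dentate granule-like nuclei, 6.85 and 11.7 CPM in CA3-like nuclei and 6.59 and 11.7 CPM in CA1-like nuclei, control first, with ratios of 0.43, 0.77 and 0.82, and in inhibitory-like nuclei 9.87 and 9.55 CPM, a ratio of -0.05 (-0.34 to 0.24). Whether these molecules held the floxed exons cannot be seen in gene counts, and directions below are given for the libraries as labelled.

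As background, immediate-early genes are switched on within minutes of strong synaptic activity, before any new protein is made. Calcium entry and MAP kinase signalling activate factors that already sit at their promoters, among them CREB at cAMP response elements and serum response factor with its partners. The encoded proteins then start a later wave of genes that act at the synapse, and RNA in the nucleus reports recent transcription. Capicua binds octamers such as TGAATGAA and TGAATGGA and is released from DNA when the MAP kinase pathway is active.

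The promoters of 7 of the 10 genes were matched in RefSeq (build GRCm38.p6, while the counts were made on mm39, so no coordinate here refers to the count files). The promoters of a whole chromosome had been left out beforehand, so a missing match does not mean a missing RefSeq entry. The search covered 300 bases from 250 before to 50 after the transcription start, on both strands, for TGACG, the core of the cAMP response element, for the full element TGACGTCA, and for the Capicua octamers TGAATGAA and TGAATGGA. TGACG was found in 6 of the 7 windows and at 2 or more positions in 4 of them (Fos, Npas4, Nr4a1 and Nr4a3), where 20.8% and 5.01% of 32851 promoters of the same length held it. The full element, which contains TGACG on both strands, was found in none of the 7 and in 1.79% of all promoters searched. A Capicua octamer was found in 2 of the 7, Fos and Fosb, and in 2.47% of all promoters searched. A match of letters is a description and was not tested for binding. The windows of Fos and Fosb are shown for both kinds of match, Npas4 and Nr4a3 for their repeated TGACG, and Jun as the window with neither. Capitals mark TGACG or a Capicua octamer on either strand (CGTCA, TTCATTCA and TCCATTCA are the minus-strand readings), and each sequence runs 5′ to 3′ on the gene's strand up to the transcription start, or 5 bases past it in Fosb, where the octamer spans the start.
Fos, chr12:85473640-85473889, plus strand: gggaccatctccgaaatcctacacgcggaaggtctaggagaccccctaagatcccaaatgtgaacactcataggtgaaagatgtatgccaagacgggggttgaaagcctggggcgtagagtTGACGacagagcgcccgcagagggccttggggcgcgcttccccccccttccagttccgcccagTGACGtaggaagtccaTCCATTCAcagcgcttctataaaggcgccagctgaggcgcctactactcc
Fosb, chr7:19310041-19310295, minus strand: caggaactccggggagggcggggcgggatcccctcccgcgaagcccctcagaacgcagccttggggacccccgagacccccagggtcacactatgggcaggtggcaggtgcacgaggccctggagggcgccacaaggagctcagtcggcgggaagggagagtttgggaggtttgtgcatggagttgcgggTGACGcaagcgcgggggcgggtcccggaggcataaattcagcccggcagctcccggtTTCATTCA
Npas4, chr19:4989972-4990221, minus strand: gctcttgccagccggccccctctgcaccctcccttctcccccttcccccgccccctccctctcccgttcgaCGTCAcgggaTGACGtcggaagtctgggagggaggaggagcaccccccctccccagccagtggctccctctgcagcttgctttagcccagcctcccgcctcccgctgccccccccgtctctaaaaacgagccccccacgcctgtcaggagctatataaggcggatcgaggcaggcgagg
Nr4a3, chr4:48045055-48045304, plus strand: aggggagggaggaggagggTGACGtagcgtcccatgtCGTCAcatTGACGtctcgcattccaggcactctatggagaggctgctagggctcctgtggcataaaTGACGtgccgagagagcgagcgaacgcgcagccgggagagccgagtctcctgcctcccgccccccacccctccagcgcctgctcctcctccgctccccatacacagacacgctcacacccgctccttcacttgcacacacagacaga
Jun, chr4:95052223-95052472, minus strand: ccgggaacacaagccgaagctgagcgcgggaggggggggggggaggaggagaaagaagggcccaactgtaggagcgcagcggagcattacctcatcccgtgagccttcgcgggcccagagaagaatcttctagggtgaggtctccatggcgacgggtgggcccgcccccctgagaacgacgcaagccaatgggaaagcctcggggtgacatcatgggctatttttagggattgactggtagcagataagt

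The 10 genes were not expressed in the same classes. Nr4a3 was highest in CA3-like nuclei in both libraries, at 73.8 CPM (70.7 to 77.1) in the control and 57.8 CPM (54.7 to 61.0) in the labelled knockout. CA1-like nuclei had 39.7 and 36.8 CPM and CA2-like nuclei 35.3 and 40.7 CPM, with overlapping intervals, while immature dentate granule-like nuclei had 26.6 and 22.0 CPM, and mature dentate granule-like nuclei 5.13 and 4.91 CPM. Nr4a3 was thus lower in the mature than in the immature granule class in each library, with intervals that did not overlap.

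Nr4a1 was highest in the CA2-like class of the control at 39.9 CPM and in the subicular or cortical excitatory-like class of the labelled knockout at 34.5 CPM. In the control the CA2-like interval (33.6 to 47.0) overlapped that of the subicular class (31.2 CPM, 28.2 to 34.5), which overlapped that of CA1-like nuclei (29.8 CPM, 28.3 to 31.4). CA1-like nuclei of the labelled knockout had 28.2 CPM, and dentate granule-like nuclei had 4.16 and 5.99 CPM. Npas4 was highest in CA1-like nuclei, at 11.6 CPM in the control and 7.12 CPM in the labelled knockout. CA2-like nuclei came next with 9.61 and 6.33 CPM, and the intervals of the CA1-like and CA2-like classes overlapped.

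Jun followed another pattern. Among neurons of the control it was highest in dentate granule-like nuclei, at 26.5 CPM, against 11.7 CPM in CA3-like, 6.17 CPM in CA1-like and 4.70 CPM in inhibitory-like nuclei. Microglia-like nuclei held 27.3 CPM of Jun (22.1 to 33.4), an interval that spans the granule-like level. Across the 32 sums of 16 classes and 2 libraries, Jun was the 1 gene of the 10 whose level ran against the mean of the 10 (Pearson r = -0.21), while Npas4 and Nr4a3 followed it most closely (r = 0.84 and 0.83). These correlations describe class sums that differ in depth and share libraries.

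Egr3, by contrast, was at a similar level in the dentate granule-like and immature granule-like classes (7.43 and 9.02 CPM in the control), in CA1-like nuclei (7.87 CPM) and in CA3-like nuclei (6.85 CPM), and at 0.55 CPM in inhibitory-like nuclei. Inhibitory-like nuclei held mainly Nr4a1, at 11.1 CPM in the control and 14.2 CPM in the labelled knockout, and had under 5 CPM of each of the other 9 genes. Junb had 24.2 and 23.9 CPM in microglia-like nuclei, above CA1-like nuclei at 16.9 and 9.49 CPM, and 30.4 CPM in control endothelial-like nuclei from only 9 UMIs. Fos and Fosb were sparse, with 411 and 169 UMIs over all control nuclei and 441 and 80 UMIs in the labelled knockout.

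**Figure D1:**
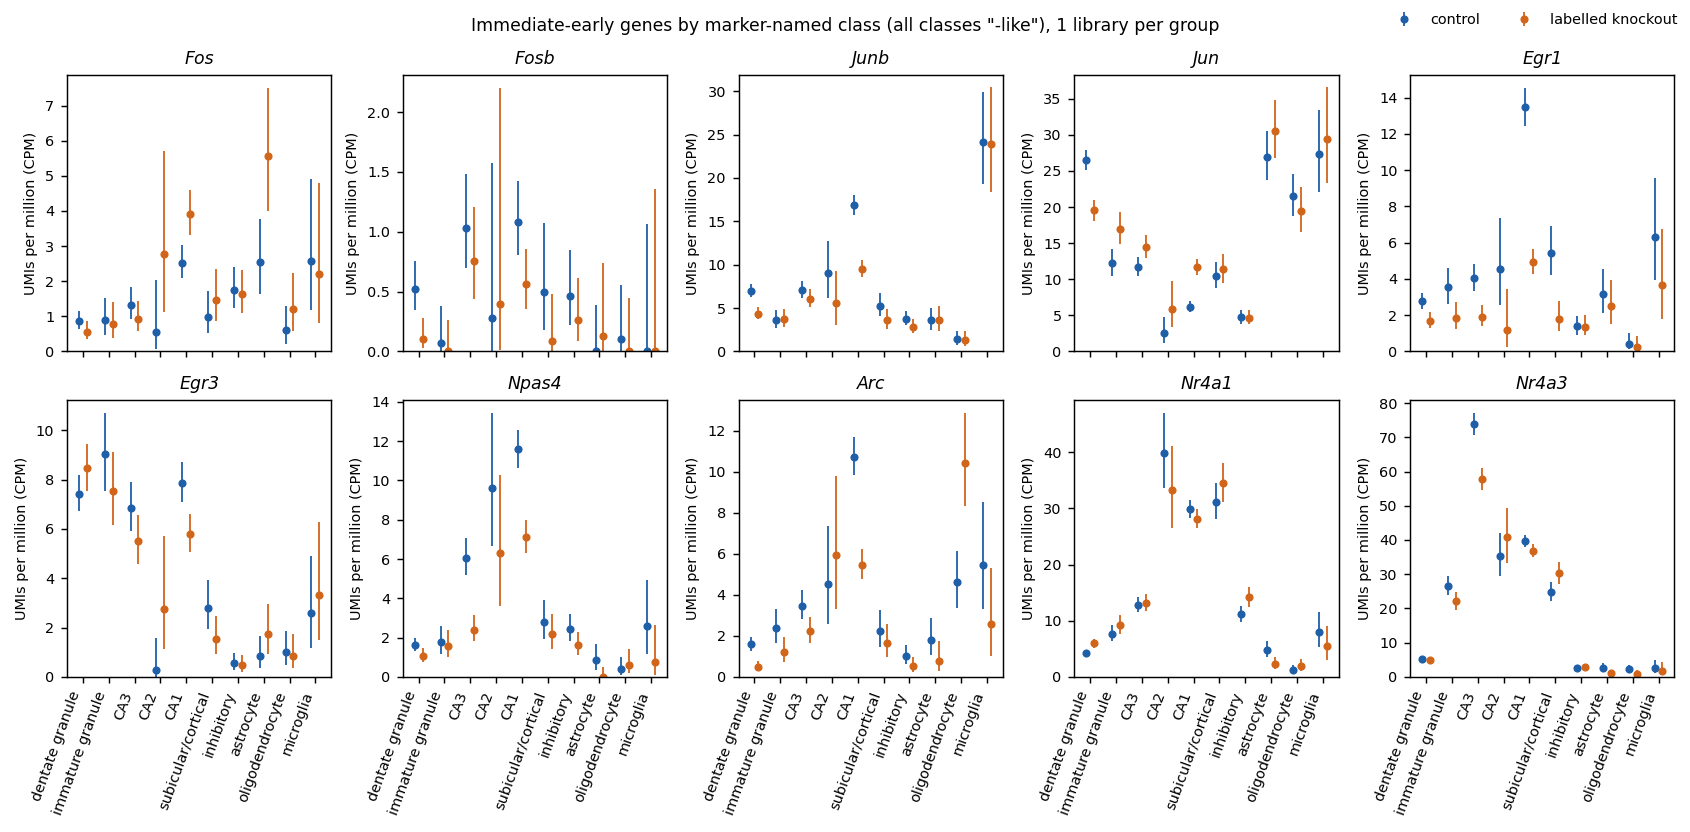
Level of each gene in CPM (vertical axis, linear, from 0) in 10 marker-named classes, with the control in blue, the library labelled knockout in orange and 95% Poisson intervals as bars, 1 library per group. Nr4a3 peaked in CA3-like nuclei, Npas4 and the control's Egr1 and Arc in CA1-like nuclei, and Jun in granule-like nuclei and glia.

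Classes outside the neurons also held these transcripts, as free RNA in droplet data can bring about. Over 6 classes outside the neurons (astrocyte-like, both oligodendrocyte precursor-like classes, microglia-like, endothelial-like and radial glia-like) Arc had 2.66 CPM in the control and 1.03 CPM in the labelled knockout, a log2 ratio of -1.35 (-2.16 to -0.64). In the same nuclei Npas4 had 0.998 and 0.294 CPM, a ratio of -1.68 (-3.34 to -0.43). Fos went up in them, at 1.71 and 3.73 CPM, a ratio of 1.12 (0.56 to 1.71). Oligodendrocyte-like nuclei, not in this sum, went the other way for Arc, at 4.60 and 10.4 CPM. Levels of these 3 genes outside the neurons thus differed between the libraries, with no single direction for Arc, and the part of free RNA in the neuronal ratios was not tested.

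Dentate granule-like nuclei stood close to these classes for Arc, Egr1 and Npas4. With each nucleus thinned to 2000 UMIs, Arc was seen in 0.366% (0.21 to 0.594) of control granule-like nuclei, at a median of 11795 UMIs before thinning, against 0.36% (0.145 to 0.74) of astrocyte-like nuclei at 4592 and 0.925% (0.40 to 1.81) of microglia-like nuclei at 2154.5, of which 671 were too shallow to thin. Egr1 was seen in 0.595% (0.389 to 0.871) of granule-like, 0.771% (0.432 to 1.27) of astrocyte-like and 0.925% (0.40 to 1.81) of microglia-like nuclei. Npas4 was seen in 0.344% (0.192 to 0.566) of granule-like, 0.154% (0.0318 to 0.45) of astrocyte-like, 0.191% (0.0232 to 0.69) of oligodendrocyte precursor-like and 0.462% (0.126 to 1.18) of microglia-like nuclei. The granule-like shares of Arc, Egr1 and Npas4 thus could not be told from those of non-neuronal classes at this depth, and no expression is read from them. CA1-like nuclei lay above these shares in the control, with Arc in 2.33% (1.76 to 3.02), Npas4 in 2.2% (1.65 to 2.88) and Egr1 in 2.92% (2.28 to 3.68) of nuclei at the same depth. Other genes in control granule-like nuclei were also close to astrocyte-like nuclei. Nr4a1 was in 0.962% (0.694 to 1.30) against 1.03% (0.629 to 1.58), and Junb in 1.31% (0.99 to 1.69) against 1.08% (0.669 to 1.65). Jun was in 5.40% (4.75 to 6.12) against 5.24% (4.29 to 6.33). Nr4a3 was in 0.847% (0.597 to 1.17), which overlapped oligodendrocyte precursor-like nuclei (1.15%, 0.595 to 2.00). Fos was in 0.16% (0.0645 to 0.33), below the 0.925% (0.549 to 1.46) of astrocyte-like nuclei. The part of free RNA in their granule-like ratios was not tested.

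Most of the genes were lower in the 3 best-counted excitatory classes of the library labelled knockout. The median log2 ratio over the 10 was -0.59 for dentate granule-like, -0.57 for CA1-like and -0.40 for CA3-like nuclei. In each class 8 of 10 were below 0. Intervals lay wholly below 0 for 6 genes in granule-like, 7 in CA1-like and 4 in CA3-like nuclei, and wholly above 0 for 1, 2 and 1. The share of all genes with such intervals was not computed, so these counts are not read as particular to the 10 genes. The granule-like median includes Arc, Egr1 and Npas4, whose shares of nuclei could not be told from those of non-neuronal classes. It also includes Jun, Junb and Nr4a1, close to astrocyte-like nuclei, Nr4a3, which overlapped oligodendrocyte precursor-like nuclei, and Fos, below astrocyte-like nuclei. It is therefore not read as a decrease of the 10 genes in granule neurons. In CA2-like nuclei 3 of 6 genes with enough UMIs were below 0 (median -0.03), in the subicular or cortical class 5 of 9 (median -0.37), in female CA1-like nuclei alone 3 of 9 (median 0.37), and in female granule-like nuclei alone 4 of 8 (median -0.07). The median mitochondrial share of UMIs moved with the libraries, at 0.0147% and 0.0278% in granule-like, 0.00496% and 0.0093% in CA3-like and 0.00937% and 0.0168% in CA1-like nuclei, control first. In female CA1-like nuclei it was 0.00636% and 0.0354% and in male ones 0.0114% and 0.0105%, and its part in the ratios was not tested. Over all genes measured in the same way the medians were 0.02 for granule-like, 0.11 for CA1-like and 0.07 for CA3-like nuclei. In inhibitory-like nuclei the median was -0.10 over the 9 genes with at least 20 UMIs, against 0.05 over all genes. Cluster membership limits these ratios: 4321 of 4370 control granule-like nuclei were in one cluster and 3171 of 3251 of the labelled knockout in another, and most CA1-like nuclei were likewise in a control cluster (1436 nuclei against 16) and a labelled-knockout cluster (1337 against 120).

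Few of the changes reached 2-fold. A gene was counted when it had at least 50 UMIs in the higher library. In dentate granule-like nuclei 1 of 8 genes (Arc) was at least 2-fold lower and none higher, where 1.89% of all genes tested were lower and 2.8% higher. In CA3-like nuclei 2 of 8 (Egr1 and Npas4) were lower and none higher, against 0.737% and 1.65% of all genes. In CA1-like nuclei 1 of 10 (Egr1) was lower and none higher, against 1.03% and 4.24%. In inhibitory-like nuclei none of 5 passed in either direction, where 0.138% of all genes were lower and 0.169% higher. Each of these 3 excitatory classes thus had 1 or 2 of the genes past 2-fold, all lower, while over the whole table more genes passed as higher than as lower. Fewer than 3 genes per class are too few to read against these shares. Arc, the granule-like gene past 2-fold, was also among those not told from non-neuronal classes there.

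Among the AP-1 subunits, the direction depended on the gene and the class. In CA1-like nuclei Junb had 795 UMIs (16.9 CPM) in the control and 368 (9.49 CPM) in the labelled knockout, a log2 ratio of -0.83 (-1.01 to -0.65) that was -0.16 (-0.57 to 0.24) in female and -1.02 (-1.27 to -0.77) in male nuclei. Fosb had 51 and 22 UMIs there, a ratio of -0.91 (-1.72 to -0.18), with only 1 and 4 UMIs in female nuclei (1.73, -1.19 to 7.77). Jun went the other way in CA1-like nuclei, with 291 UMIs (6.17 CPM) against 451 (11.6 CPM), a ratio of 0.91 (0.70 to 1.13). Fos also was higher, with 119 UMIs (2.52 CPM) against 152 (3.92 CPM), a ratio of 0.63 (0.28 to 0.99) that was 2.58 (1.49 to 4.07) in female and 0.49 (-0.02 to 1.01) in male nuclei, and its level in the labelled knockout was close to the 3.73 CPM of the 6 classes outside the neurons.

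Jun did not keep this direction in every class. It was lower in dentate granule-like nuclei, where it had its highest neuronal level, with 1427 UMIs (26.5 CPM) against 724 (19.5 CPM) and a ratio of -0.44 (-0.57 to -0.31). It was higher in CA3-like nuclei, at 11.7 and 14.4 CPM (0.30, 0.07 to 0.52), and in immature granule-like nuclei, at 12.2 and 17.0 CPM (0.48, 0.19 to 0.77). In inhibitory-like nuclei Jun had 4.70 and 4.67 CPM (-0.01, -0.44 to 0.41). Jun was thus lower in 1 and higher in 3 of these 5 neuronal classes. In dentate granule-like nuclei Junb had 376 UMIs (6.98 CPM) and 161 (4.34 CPM), a ratio of -0.68 (-0.96 to -0.42), and Fosb 28 and 4 UMIs, a ratio of -2.13 (-4.24 to -0.75). The control granule-like shares of Jun and Junb lay near those of astrocyte-like nuclei at equal depth, as given above. Thinned to 2000 UMIs, Jun was in 0.804% and 2.82% of CA1-like nuclei and 1.96% and 2.83% of CA3-like nuclei, control first. Astrocyte-like nuclei stood at 5.24% and 6.09%, above both classes. The part of free RNA in the Jun ratios was not tested. The CA3-like intervals of Fos, Fosb and Junb all reached 0. Fos was also higher in astrocyte-like nuclei, with 24 UMIs (2.54 CPM) and 42 (5.56 CPM), a ratio of 1.12 (0.37 to 1.92). Thinned to 2000 UMIs, Fos was in 0.925% (0.549 to 1.46) and 1.06% (0.632 to 1.68) of astrocyte-like nuclei, control first. In CA1-like nuclei it was in 0.593% (0.324 to 0.992) and 0.955% (0.592 to 1.46). All these intervals overlapped, so no increase of Fos in neurons or glia is read from the ratios, and the part of free RNA was not tested. The 2 genes with a Capicua octamer in the window shown above moved in opposite directions in CA1-like nuclei with the sexes pooled, Fos higher and Fosb lower. In female CA1-like nuclei alone both were above 0, Fosb from few UMIs. Both were below 0 in CA3-like nuclei (-0.485 and -0.436) and in dentate granule-like nuclei. A part of the octamer in these ratios was not tested.

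Egr1 was lower in most classes, while Egr3 had no common direction. In CA1-like nuclei Egr1 had 635 UMIs (13.5 CPM) in the control and 191 (4.92 CPM) in the labelled knockout, a ratio of -1.45 (-1.69 to -1.22), the lowest of the 10 ratios in that class. In CA3-like nuclei it had 113 UMIs (4.03 CPM) and 43 (1.91 CPM), a ratio of -1.07 (-1.62 to -0.56). The 6 classes outside the neurons held 3.49 and 2.21 CPM of Egr1, so of these 4 levels the CA1-like level in the control and, less so, in the labelled knockout stood above theirs. Thinned to 2000 UMIs, Egr1 was in 0.765% (0.351 to 1.45) of control CA3-like nuclei, against 0.771% (0.432 to 1.27) of astrocyte-like nuclei. By sign alone, with no UMI minimum, Egr1 was lower in the labelled knockout in 13 of 16 classes, and Egr3 lower in 9 and higher in 7. By the same count Junb was lower in 15, Arc in 14 and Npas4 in 13, and some of these classes held few UMIs. Egr3 had 371 UMIs (7.87 CPM) and 225 (5.80 CPM) in CA1-like nuclei, a ratio of -0.44 (-0.69 to -0.20) that was 0.017 in female nuclei alone, and in dentate granule-like nuclei 400 (7.43 CPM) and 314 (8.47 CPM), a ratio of 0.19 (-0.03 to 0.41). With the sexes pooled, the granule-like interval of Egr3 reached 0, so no difference was detectable there. By sex Egr3 had 6.549 and 9.835 CPM in female granule-like nuclei, from 107 and 116 UMIs, control first. In male granule-like nuclei it had 7.425 and 7.368 CPM.

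Npas4, known as a neuronal factor, and Arc had lower levels in the CA3-like and CA1-like classes over both sexes together. In CA3-like nuclei Npas4 had 170 UMIs (6.07 CPM) in the control and 54 (2.40 CPM) in the labelled knockout, a ratio of -1.33 (-1.81 to -0.89). At 2000 UMIs it was in 0.935% (0.468 to 1.67) of control and 0.377% (0.103 to 0.962) of labelled-knockout CA3-like nuclei. The control share lay above that of control astrocyte-like nuclei (0.154%, 0.0318 to 0.45). It overlapped those of microglia-like (0.462%, 0.126 to 1.18) and oligodendrocyte precursor-like nuclei (0.191%, 0.0232 to 0.69). In CA1-like nuclei Npas4 had 546 UMIs (11.6 CPM) and 276 (7.12 CPM), a ratio of -0.70 (-0.92 to -0.49), which turned to 0.62 in female nuclei alone. Arc in CA1-like nuclei had 506 UMIs (10.7 CPM) and 212 (5.47 CPM), a ratio of -0.97 (-1.21 to -0.74) that was -0.10 (-0.69 to 0.48) in female nuclei alone. Arc in CA3-like nuclei had 97 UMIs (3.46 CPM) and 50 (2.22 CPM), a ratio of -0.63 (-1.16 to -0.13), which turned to 0.32 with each nucleus thinned to 5000 UMIs. Thinned to 2000 UMIs, Arc was in 0.595% (0.24 to 1.22) of control CA3-like nuclei, an interval that overlaps those of astrocyte-like and microglia-like nuclei, so no expression is read from it either. The granule-like ratio of Arc, -1.67 (-2.52 to -0.96) from 85 and 18 UMIs, rests on shares of nuclei near those of non-neuronal classes, and the part of free RNA in it was not tested. In inhibitory-like nuclei the intervals of both genes reached 0, from 53 and 31 UMIs of Npas4 and 22 and 10 of Arc.

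For the orphan receptors the size and direction of the ratio depended on the class. Nr4a1 in CA1-like nuclei had 1407 UMIs (29.8 CPM) and 1092 (28.2 CPM), a ratio of -0.08 (-0.20 to 0.03), from 0.37 in female and -0.26 in male nuclei, and in CA3-like nuclei 12.8 and 13.2 CPM (0.04, -0.18 to 0.27). In dentate granule-like nuclei Nr4a1 had 224 UMIs (4.16 CPM) and 222 (5.99 CPM), a ratio of 0.53 (0.25 to 0.80), and in inhibitory-like nuclei 241 (11.1 CPM) and 270 (14.2 CPM), a ratio of 0.35 (0.09 to 0.61). At 2000 UMIs the control granule-like share of Nr4a1 was close to that of astrocyte-like nuclei. Nr4a1 was in 2.50% (1.70 to 3.56) of control inhibitory-like nuclei, against 2.68% (1.79 to 3.85) of oligodendrocyte precursor-like nuclei. The 6 classes outside the neurons held 7.4 and 9.02 CPM, a ratio of 0.28 (-0.03 to 0.58). The part of free RNA in the granule-like and inhibitory-like ratios was not tested. By sex the inhibitory-like ratio was 0.59 (0.15 to 1.06) in female and 0.05 (-0.33 to 0.43) in male nuclei, so in male nuclei alone no difference was detectable at this depth. Nr4a3 in CA3-like nuclei had 2068 UMIs (73.8 CPM) and 1299 (57.8 CPM), a ratio of -0.35 (-0.46 to -0.25), and in CA1-like nuclei 1874 (39.7 CPM) and 1427 (36.8 CPM), a ratio of -0.11 (-0.21 to -0.01), which turned to 1.10 in female nuclei alone and to 0.029 with each nucleus thinned to 5000 UMIs. In granule-like nuclei Nr4a3 had a ratio of -0.06 (-0.34 to 0.21), from 0.51 in female and -0.46 in male nuclei. Median-of-ratios size factors shifted every CA1-like ratio alike by -0.12, so the order of the genes could not change. Jun and Fos had ratios larger than this shift and were above 0 with and without it, and the other 8 genes were below 0.

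**Figure D2:**
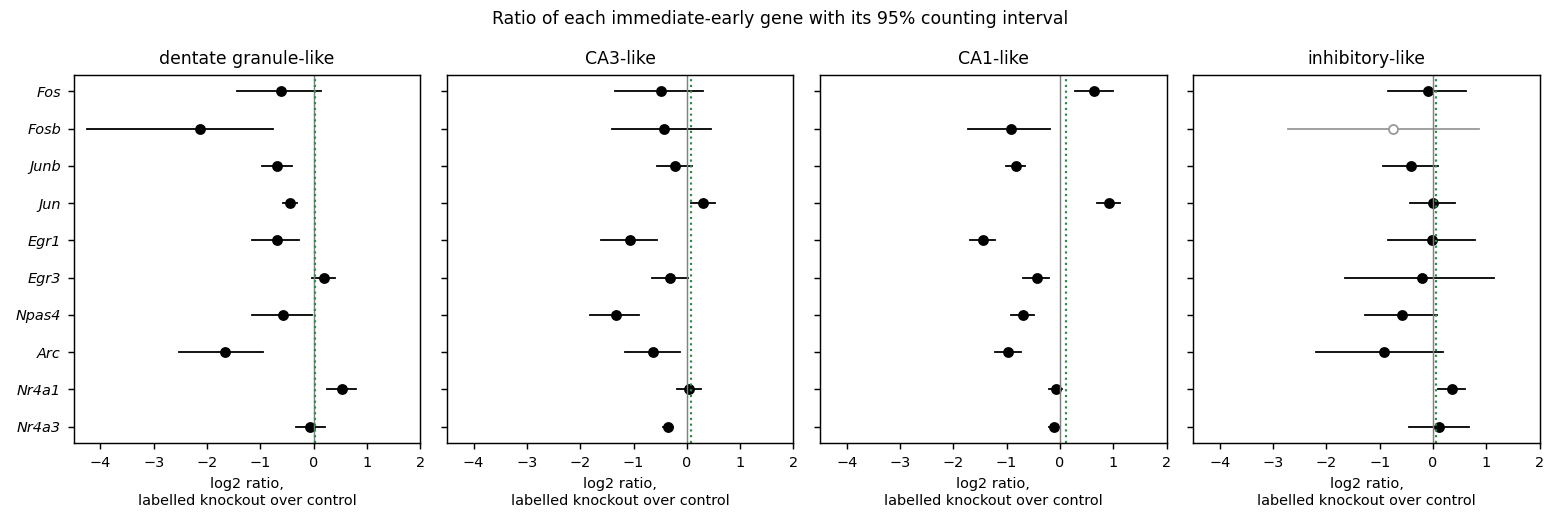
Log2 ratio of the labelled knockout over the control for each gene (horizontal axis) in 4 classes, with 95% counting intervals as bars, open grey symbols for genes with fewer than 20 UMIs in both libraries together and a dotted green line at the median over all genes measured. In CA1-like nuclei Jun (0.91) and Fos (0.63) lay right of 0 and Egr1 (-1.45) farthest left.

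Nuclei holding several of these transcripts were mainly CA1-like and CA3-like neurons. UMIs of 3 or more of the 10 genes were found in 1385 of 21837 control nuclei, 6.34% (6.02 to 6.67), and in 920 of 20529 nuclei of the labelled knockout, 4.48% (4.202 to 4.77). CA1-like nuclei made up 44.0% and 40.2% of them and CA3-like nuclei 14.4% and 16.9%, while 20.7% and 21.6% were in clusters left unnamed. Within CA1-like nuclei the share was 25.8% (24.0 to 27.6) in the control and 16.8% (15.3 to 18.5) in the labelled knockout, an order that was reversed in female nuclei alone (12.7% and 18.8%). Within CA3-like nuclei it was 17.0% (14.9 to 19.3) and 14.6% (12.5 to 16.9), with overlapping intervals. Dentate granule-like nuclei had 1.83% (1.45 to 2.27) and 0.923% (0.623 to 1.31), although they formed 20.01% and 15.8% of the nuclei. In female granule-like nuclei alone it was 1.58% (0.979 to 2.40) and 1.42% (0.78 to 2.38), and in the main control cluster 1.83% of 4321 control and 6.25% (2.06 to 14.0) of 80 labelled-knockout nuclei.

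Glial classes almost never held 3 of the genes. Microglia-like nuclei had 0 of 1536 in the control, with an exact interval of 0 to 0.24%, or a limit of 0.195% when set at 3 nuclei. They had 3 of 1499 in the labelled knockout. Oligodendrocyte-like nuclei had 0 of 1190 and 1 of 940, and astrocyte-like nuclei 1 of 2012 and 1 of 1811. These nuclei were also shallower. With every nucleus thinned to 5000 UMIs, which left out 6 control and 9 labelled-knockout nuclei of the CA1-like class, its share was 3.43% (2.74 to 4.25) and 2.28% (1.70 to 3.00), and that of dentate granule-like nuclei 0.468% (0.286 to 0.721) and 0.157% (0.0511 to 0.367). The order of the 2 libraries was kept in both classes at equal depth, with intervals that overlapped.

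Nuclei with 5 or more of the genes were also fewer in the labelled knockout over both sexes together. They numbered 146 of 2365 CA1-like nuclei in the control, 6.17% (5.24 to 7.22), and 48 of 2198 in the labelled knockout, 2.18% (1.61 to 2.89). In CA3-like nuclei they numbered 41 of 1176 (3.49%, 2.51 to 4.70) and 11 of 1061 (1.04%, 0.519 to 1.85). The CA3-like intervals did not overlap at this count, at median depths of 23293 and 20556 UMIs. Thinned to 5000 UMIs the intervals overlapped in both classes, at 0.256% (0.0528 to 0.746) and 0 of 1057 (0 to 0.348) in CA3-like and 0.382% (0.175 to 0.723) and 0.183% (0.0498 to 0.467) in CA1-like nuclei. In female CA1-like nuclei alone the order was the reverse, at 0.295% (0.0357 to 1.06) in the control and 2.44% (1.40 to 3.94) in the labelled knockout. In the CA1-like class, 64.5% of all UMIs of the 10 genes in the control and 45.2% in the labelled knockout came from the nuclei with 3 or more, which were selected by these same UMIs.

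**Figure D3:**
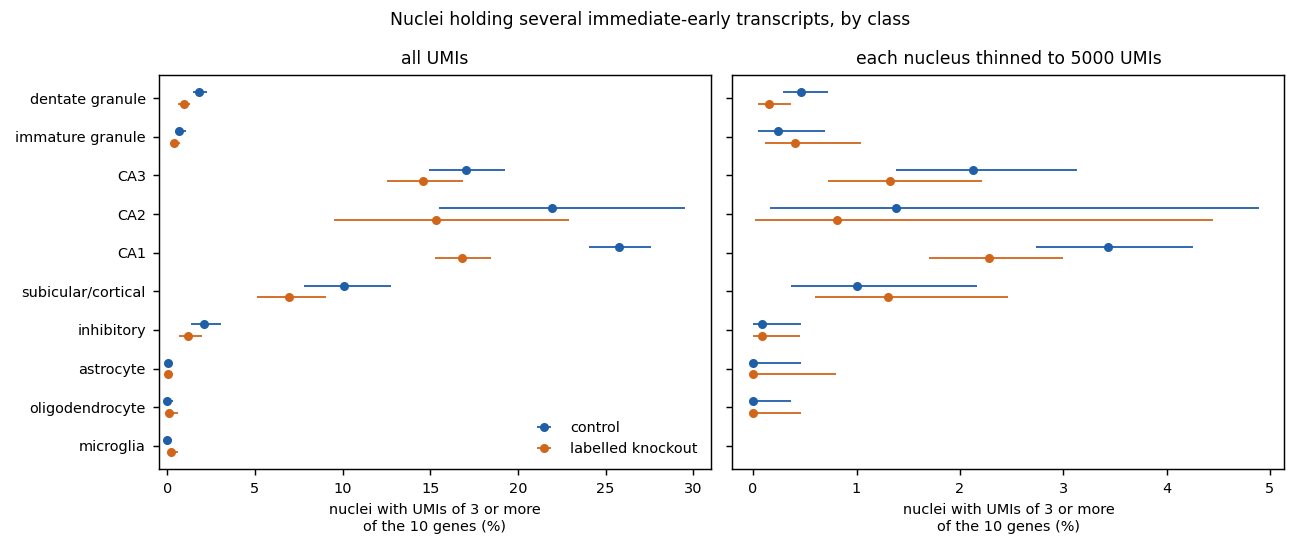
Percentage of nuclei with UMIs of 3 or more of the 10 genes (horizontal axis, different ranges) in 10 classes, for all UMIs and after thinning each nucleus to 5000 UMIs, with exact 95% binomial intervals; classes under 100 nuclei after thinning (microglia-like) are not drawn. The CA1-like control share of 25.8% was the highest, above 16.8% in the labelled knockout.

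Within CA1-like nuclei most of the genes were seen more often in nuclei with Npas4, Jun excepted. In control nuclei with a UMI of Npas4 (335 nuclei), Arc was found in 38.2% against 12.8% of those without, Egr1 in 38.2% against 16.1%, Fos in 12.5% against 2.27% and Fosb in 7.76% against 0.542%. In the labelled knockout (206 nuclei with Npas4) the same pairs stood at 18.0% and 7.13% for Arc, 13.6% and 7.08% for Egr1, and 19.9% and 4.52% for Fos. Jun was found in 8.06% of the control nuclei with Npas4 and in 10.3% of those without, and in 12.1% and 17.1% in the labelled knockout. Jun was therefore the gene whose share was not raised beside Npas4 in either library. The sexes are pooled here, and in the control Npas4 and the other genes except Jun were at higher levels in male than in female nuclei, so the part of sex or mouse in these shares was not tested.

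The make-up of the nuclei with 3 or more genes differed between the libraries. In CA1-like nuclei of that kind, Jun was present in 15.3% in the control and in 36.2% in the labelled knockout, and Fos in 11.8% and 24.3%. Egr1 was present in 46.7% and 25.1%, and Arc in 46.2% and 27.6%. Nr4a1 (72.6% and 72.2%) and Nr4a3 (71.0% and 73.2%) were the most frequent in both. These shares repeat the direction of the class levels and are not independent of them.

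The CA1-like share was also compared by cluster. In the main control cluster the share with 3 or more genes was 31.3% (28.9 to 33.7) of control nuclei and 18.75% (4.05 to 45.65) of only 16 labelled-knockout nuclei. In the main cluster of the labelled knockout it was 23.3% (16.1 to 31.9) of 120 control nuclei and 19.1% (17.0 to 21.3) of labelled-knockout nuclei. The intervals of the libraries overlapped within each of these clusters. In the 3 CA1-like clusters that both libraries filled, chosen after the values were seen as those where neither library outnumbered the other by more than 3 to 1, it was 16.4% (14.0 to 19.2) of 809 and 13.3% (11.04 to 15.7) of 845 nuclei. By cluster it was 19.5% and 11.8%, 12.3% and 5.34%, and 22.0% and 20.9%, control first, and the last cluster held 109 control and 282 labelled-knockout nuclei. In the 3 clusters together the ratios of single genes were -1.62 for Egr1, -1.17 for Npas4, -0.97 for Arc and -0.72 for Junb, with Jun at 0.50 and Fos at 0.20. Egr1, Npas4, Arc and Junb were thus lower in the shared clusters too, in ratios given without intervals and not split by sex. The share of nuclei was lower in each of the 3 with the sexes pooled. By sex the order was turned in part, with 11.01% and 13.7% in female nuclei of the first cluster, 4.17% and 4.26% in those of the second, and 17.3% and 19.0% in male nuclei of the last.

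Female and male CA1-like nuclei of the control differed more widely than the libraries did. Nuclei were split by UMIs of Xist or of Y-linked genes into female nuclei, from 1 mouse per library by the labels, and male nuclei, from 2. In CA1-like nuclei of the control the share with 3 or more genes was 12.7% (10.3 to 15.4) in 678 female nuclei and 30.7% (28.0 to 33.5) in 1127 male nuclei. In the labelled knockout it was 18.8% (15.9 to 22.0) in 655 female and 15.8% (13.7 to 18.0) in 1111 male nuclei. Male nuclei of the control were thus the group that stood apart, and the female nuclei of the control were the lowest of the 4.

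Single genes gave this picture only in part. Of the 10 genes, 9 were higher in male than in female CA1-like nuclei of the control, with intervals that did not reach 0. The median log2 ratio of male over female was 1.21 over the 10 genes. The same comparison was not made over all genes, so neither value is read as particular to the 10. Npas4 had 4.29 CPM in female and 14.1 CPM in male control nuclei, and 6.60 and 7.50 CPM in female and male nuclei of the labelled knockout. Arc had 4.29 and 13.5 CPM in the control and 4.01 and 6.13 CPM in the labelled knockout. Egr1 had 7.31 and 16.7 CPM in the control and 4.26 and 5.08 CPM in the labelled knockout, so it was lower in the labelled knockout in both sexes. Female control nuclei were thus not the lowest group for Arc and Egr1, nor for Junb, at 8.89 CPM against 7.93 CPM in female labelled-knockout nuclei. Fos in male control nuclei, at 2.72 CPM, was below female (3.34 CPM) and male (3.83 CPM) nuclei of the labelled knockout. Jun was the exception in the control, at 6.25 and 5.94 CPM, and was higher in the labelled knockout in both sexes, at 14.9 and 9.80 CPM.

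By sex, the comparison of the libraries therefore changed direction. In female CA1-like nuclei the median log2 ratio, labelled knockout over control, was 0.37 over 9 genes, against 0.22 over all genes, and in male nuclei it was -0.78 over 10 genes, against 0.04. In CA3-like nuclei both sexes lay below 0, at -0.28 over 8 genes and -0.33 over 10. In dentate granule-like nuclei the female median was -0.07 over 8 genes and the male median -0.60 over 10. Sex, single mouse and handling cannot be told apart here, since 1 female mouse stands for each genotype.

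**Figure D4:**
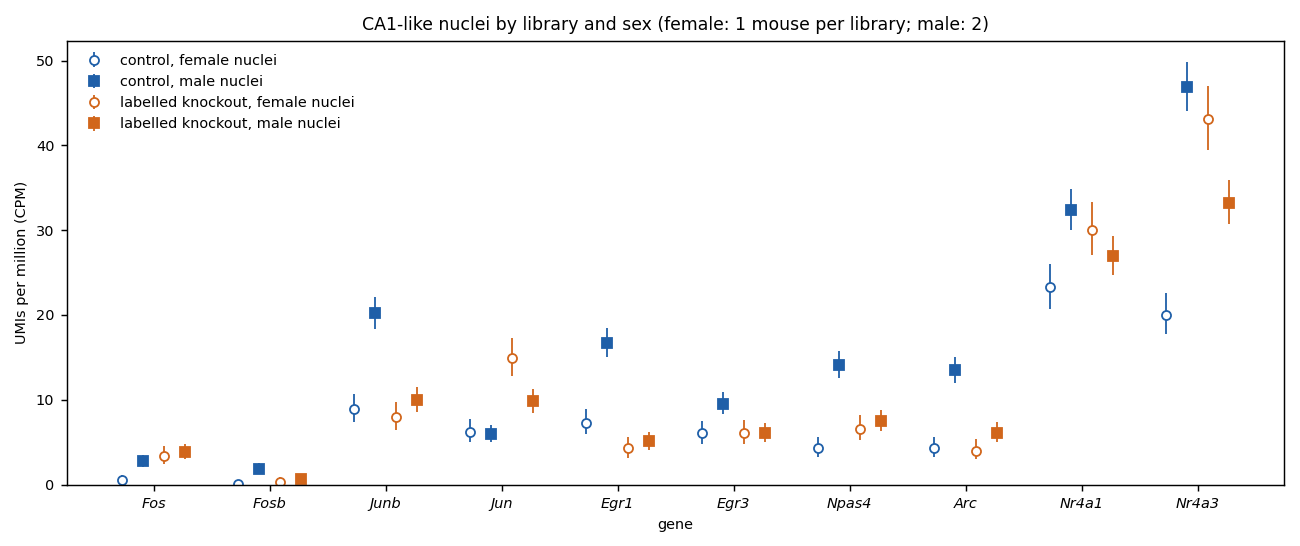
Level of each gene in CPM (vertical axis, linear, from 0) in CA1-like nuclei split by library (control blue, labelled knockout orange) and sex (open circles female, filled squares male), with 95% Poisson intervals. Male control nuclei were highest for Junb, Egr1, Egr3, Npas4, Arc and Nr4a3, while Jun was higher in both sexes of the labelled knockout.

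Other genes of the activity response were compared by 4 lists. Of 18 other early response factors, in dentate granule-like nuclei 13 had 50 UMIs and 2 were at least 2-fold lower, Fosl2 (5.42 and 1.32 CPM, ratio -2.03), an AP-1 subunit, and Klf2 (1.28 and 0.512 CPM, ratio -1.30), where 1.89% of all genes were lower. In CA1-like nuclei 1 of 11 was lower, Egr4 (5.24 and 1.75 CPM, ratio -1.57), where 1.03% of all genes were, and in CA3-like and inhibitory-like nuclei none passed in either direction, of 10 and 7. The list medians were -0.30 in the granule-like class, -0.12 in the CA3-like class and -0.09 in the CA1-like class. These medians were below 0 and nearer to it than those of the 10 genes.

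The later effectors did not share a direction. Of 25, with 21 at 50 UMIs in dentate granule-like nuclei, 2 were higher, the kinase gene Plk3 (0.817 and 4.10 CPM, ratio 2.32) and the secreted-peptide precursor gene Vgf (4.92 and 18.6 CPM, ratio 1.92). In the same nuclei 4 were lower, Ptgs2, the inducible cyclooxygenase (3.53 and 0.404 CPM, ratio -3.08), Sorcs3, a sorting receptor (57.3 and 18.8 CPM, ratio -1.61), Baz1a (-1.49) and Nptx2 (-1.42). Plk3 and Vgf were also higher in CA3-like (2.09 and 1.15) and CA1-like nuclei (1.52 and 1.33), and Ptgs2 lower (-1.05 and -1.07). CA3-like nuclei added Nptx2 lower (-1.32), and CA1-like nuclei Gadd45g higher (1.01), so 4 of 20 and 4 of 23 effectors passed there, while none of 18 passed in inhibitory-like nuclei. Over all genes 2.8% were higher and 1.89% lower in granule-like, 1.65% and 0.737% in CA3-like, and 4.24% and 1.03% in CA1-like nuclei. The list medians lay between -0.043 and -0.005 in the 4 classes.

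Of these genes 6 are given by sex, chosen after their values were seen. Plk3 in CA1-like nuclei had ratios of 1.64 in female and 1.61 in male nuclei, and Vgf 1.65 and 1.12. Ptgs2 in dentate granule-like nuclei had -2.87 and -2.92, Sorcs3 -1.75 and -1.32, and Fosl2 -1.93 and -1.77. Egr4 in CA1-like nuclei had -0.87 and -1.67. These are descriptions of chosen genes, and no contrast with the 10 genes is drawn from them.

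Of 17 upstream factors and kinases, 1 passed 2-fold, Mapk3, which encodes the MAP kinase ERK1, higher in CA1-like nuclei (1.65 and 4.43 CPM, ratio 1.42), with 17 at 50 UMIs there. In that class 4.24% of all genes were higher, so 1 of 17 is not read as a result about the list. Of 13 genes of the response to tissue handling and heat, none passed in any of the 4 classes, with 7 at 50 UMIs in each and medians between 0.05 and 0.22. The list medians of the upstream genes lay between -0.08 and 0.01. In CA1-like nuclei the handling median was 0.22, with 7 of 8 measured genes higher, against 0.11 over all genes. Of the handling genes measured, 6 of 7 were higher in granule-like, 4 of 7 in CA3-like and 5 of 8 in inhibitory-like nuclei. The upstream median in CA3-like nuclei was -0.08, against 0.07 over all genes. The part of handling in the ratios of the 10 genes was not tested.

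Other genes also had higher levels in the nuclei that held 3 or more of the 10. In CA1-like nuclei the 8 genes with the highest lower-of-both-libraries fold, over nuclei with none of the 10, were Pcsk1, Nr4a2, 1700016P03Rik, Tcf7l1, 4933411E02Rik, Tiparp, Fam163a and Mir670hg, of 11329 ranked. Nr4a2, the remaining gene of the same receptor family, had 69.7 against 10.6 CPM in the control, a log2 fold of 2.72 (2.43 to 3.03), and 1.99 (1.64 to 2.35) in the labelled knockout. Pcsk1, a prohormone convertase, had folds of 2.08 and 2.10. In dentate granule-like nuclei the 8 were Nr4a2 (3.90 and 4.21), Mir670hg, 1700016P03Rik, Kcnj2, Sorcs3, Zdbf2, Pcsk1 and Sorcs1, so 4 of 8 were shared with CA1-like nuclei. These folds rest on 80 control and 30 labelled-knockout nuclei with 3 or more genes, and Sorcs1 on 10 UMIs in the latter. Over all genes with enough UMIs, 1.2% and 2.27% were at least 2-fold higher in such granule-like nuclei, control first. In CA1-like nuclei these shares were 0.315% and 0.279%. The overlap was not tested. The lists of activity genes held 2 of the 8 CA1-like genes (Pcsk1 and Nr4a2) and 3 of the 8 granule-like genes (Nr4a2, Sorcs3 and Pcsk1), and enrichment was not tested. Further listed genes with log2 folds above 0 in CA1-like nuclei included Bdnf (2.04 and 0.97), Btg2 (2.02 and 1.21) and Per1 (1.49 and 1.08). Others were below 0, such as Klf6 (-0.04 and -0.08), Inhba (-0.05 and -0.23), Cebpb (-0.16 and -0.44) and Klf10 (-0.45 and -0.01). These examples were chosen after their values were seen. Depth moved with this grouping, at medians of 19701 UMIs in CA1-like control nuclei with 3 or more and 17752 in those with none. Sex moved with it as well. Of nuclei with a called sex, those with 3 or more genes were 19.9% female in the control, against 37.6% of the whole CA1-like class. In the labelled knockout these shares were 41.3% and 37.1%. The parts of depth and of sex or mouse were not tested.

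1700016P03Rik, with folds of 2.42 and 1.83 in CA1-like and 3.69 and 2.51 in dentate granule-like nuclei, is a noncoding host transcript. In GENCODE for GRCm38 it contains the genes of miR-212 and miR-132, microRNAs long known as targets of CREB. The counts here are of the host transcript and say nothing of the mature microRNAs. Their main mature forms from RefSeq (GRCm38.p6) are shown because they share a seed, bases 2 to 8, in capitals.
mmu-miR-132-3p, chr11:75173723-75173744, plus strand: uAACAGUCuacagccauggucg
mmu-miR-212-3p, chr11:75173443-75173464, plus strand: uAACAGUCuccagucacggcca

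In inhibitory-like nuclei only 25 control and 15 labelled-knockout nuclei held 3 or more of the genes. Their 8 leading genes were 4930467D21Rik, Gm16001, Tafa1, Rtkn2, Itga8, Slc24a4, Megf10 and Neurod6, and neither Nr4a2 nor Pcsk1 was among them. Neurod6 is a marker of excitatory neurons, at 10.5 against 3.33 CPM in the control. Over 26 excitatory markers these nuclei had 2058 CPM in the control and 2030 CPM in the labelled knockout, against 1780 and 1711 CPM in inhibitory-like nuclei with none of the 10. Over 7 inhibitory markers they had 15950 and 10940 CPM, against 17690 and 17040 CPM. Higher excitatory and lower inhibitory marker RNA thus moved with the grouping, and its part in the result was not tested.

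Across the class sums, genes most like the mean of the 10 included Stum (Pearson r = 0.88), Camkv, Chrd, Neurod6, Atp2b1, Adcy9 and Gm38413 (r = 0.84), of 14691 genes over 32 sums of 16 classes. These values describe class sums that share libraries and depth.

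Arc had a further site of difference, in oligodendrocyte-like nuclei. It had 46 UMIs (4.60 CPM) in the control and 86 (10.4 CPM) in the labelled knockout, a log2 ratio of 1.17 (0.65 to 1.73), the opposite direction to CA1-like and CA3-like nuclei. Of the latter, 60 UMIs came from a cluster with 482 nuclei of the labelled knockout and 8 of the control, where 11.6% of nuclei held Arc at 13.5 CPM. In the other oligodendrocyte-like clusters the levels were 4.14 and 5.00 CPM and 6.33 and 8.25 CPM, control first. Thinned to 2000 UMIs, Arc was seen in 0.848% (0.408 to 1.55) and 2.38% (1.496 to 3.58) of oligodendrocyte-like nuclei, and 1 of 940 labelled-knockout nuclei held 3 or more of the 10 genes. Jun, at 3.57% (2.47 to 4.97) of these nuclei in the labelled knockout, was seen as well.

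The cycling progenitor-like class had 50 control and 39 labelled-knockout nuclei with 3 or more of the genes, 11.99% and 9.20% of the class. All were in 1 cluster with medians of 43192.5 and 46669 UMIs, against 3369 and 2877 for the class. In that cluster 95.1% and 96.5% of nuclei held UMIs of both Xist and Y-linked genes, against 9.56% and 7.37% of CA1-like nuclei. These nuclei hold RNA of both sexes, and no level or share of this class is read as that of single cells.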

How the data were processed

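Single-nucleus libraries made with a droplet 3′ kit were counted by the authors with Cell Ranger 8.0.1, per the file headers and the submitters' processing notes, which also name the build mm39. The deposited values are whole UMI counts for each gene in each nucleus, not normalized. The libraries held 25907 control and 23207 labelled-knockout barcodes and 314453640 and 252995761 UMIs.

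Nuclei with at least 500 genes and at most 5% mitochondrial UMIs were kept, and doublets called by Scrublet in scanpy 1.11.5 were left out (12.9% and 10.9%). Clusters came from Leiden clustering (leidenalg 0.10.2, resolution 1, 3000 variable genes, 30 components, 66 activity genes left out, all 10 genes among them) and were named from marker lists, and 8.61% and 9.18% of nuclei stayed unnamed. Counts were summed per class and library (Python 3.11.15, numpy 2.4.6, scipy 1.17.1), and no test was made with 1 library per group. Medians used genes whose UMIs summed to 20 or more over the libraries, and the 2-fold rule at least 50 UMIs in the higher library. Female nuclei had at least 2 UMIs of Xist and no Y-linked UMI, male nuclei at least 1 UMI of 4 Y-linked genes and none of Xist.

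The 10 genes are always named. From the other lists up to 4 genes per direction past 2-fold are named, and the 8 genes most like the 10 across classes or most raised in nuclei with 3 or more of them, of which 1 is not reported here. The members and lists were chosen with earlier results of these data known. Alternatives changed the doublet and gene filters, sex, clustering, depth, scaling, added UMI and thresholds, and 1 more (clusters held by both libraries) was chosen after seeing the data. Counts per gene do not separate overlapping genes.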

Additional observations from a re-analysis of the deposited data

Results flagged for a closer look

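Of 40 pairs of gene and class compared by sex, 5 had intervals on opposite sides of 0 in female and male nuclei. The difference between the sexes was not tested, and each female value comes from 1 mouse per library. In CA1-like nuclei the female log2 ratio of the labelled knockout over the control was 0.62 for Npas4 (male -0.91), 0.37 for Nr4a1 (male -0.26) and 1.10 for Nr4a3 (male -0.50). Nr4a3 in dentate granule-like nuclei had 0.51 in female and -0.46 in male nuclei. Fos in inhibitory-like nuclei had 2.94 (0.71 to 8.89) in female nuclei, from 1 and 12 UMIs, and -0.98 in male nuclei.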

How the results depend on the processing

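Female nuclei alone turned the CA1-like result around: the median ratio was 0.37, the difference in the share of nuclei with 3 or more genes 6.09 percentage points, and the ratios of Fosb 1.73 (-1.19 to 7.77, from 1 and 4 UMIs), Egr3 0.017, Npas4 0.62 and Nr4a3 1.10. Female nuclei also gave medians of -0.066 in dentate granule-like and 0.48 in inhibitory-like nuclei, and 0.008 for Egr1 in the granule-like class. In male nuclei the CA1-like share differed by -14.9 points. Thinning to 5000 UMIs gave 0.32 for Arc in CA3-like nuclei, 0.029 for Nr4a3 in CA1-like nuclei, a median of 0.10 in inhibitory-like nuclei and a CA1-like share difference of -1.15 points. At 2000 UMIs the share differences were -0.45 points in CA1-like and -0.061 points in dentate granule-like nuclei, where counting 2 or more genes gave -2.08 points. In the clusters held by both libraries the CA1-like share differed by -3.19 points.

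The number of genes past 2-fold depended on the rule. In dentate granule-like nuclei it was 0 in female nuclei, 0 in male nuclei and 0 with a minimum of 10 CPM, 2 with a minimum of 20 UMIs and 3 at 1.5-fold. In CA3-like nuclei it was 0 in female, 1 in male (Npas4) and 0 with 10 CPM. In CA1-like nuclei it was 2 in female (Jun and Nr4a3, higher), 3 in male (Junb, Egr1 and Arc, lower), 2 with activity genes in the clustering (Jun higher, Egr1 lower), 7 at 1.5-fold, 3 with median-of-ratios factors (Fosb, Egr1 and Arc, lower) and 2 in the clusters held by both libraries (Egr1 and Npas4, lower). Median-of-ratios factors shifted every CA1-like ratio alike by -0.12. The shares of all genes under these other rules are not given here, so the counts are not read as results about the 10 genes. The cause of these changes was not tested. Over these alternatives 86 values of a class and 315 ratios of single genes stayed within their counting interval or, for counts of genes, within 1.5 times, while 21 values of a class and 48 ratios of single genes moved beyond it and 4 and 7 reversed, the class values and reversals being those given above. No paired analysis was possible because each group had 1 library. Depth limits Fos, Fosb and every gene in inhibitory-like nuclei, and no replicate separates genotype from mouse or library.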
